A study of Homo sapiens with 11 samples.

Results

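The genes described here are 51 genes of the lysosome and of autophagy, measured by RNA sequencing in 769-P cells, an established line of human clear-cell renal carcinoma. They were taken by symbol from the 33080 genes of the deposited tables, and all 51 were found. The 29 lysosomal genes comprised 18 hydrolases and their cofactors, 7 membrane proteins and 4 subunits of the proton pump. The 22 autophagy genes comprised 9 genes of initiation and of the lipid PI3P, 5 of ATG8 conjugation, 4 of the ATG8 family and 4 cargo receptors.

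The series compared cells that received a first siRNA against AKR1A1, an aldo-keto reductase that reduces aldehydes (si1, 3 libraries), a second siRNA against the same gene (si2, 4 libraries) or a control siRNA (siSCR, 4 libraries). Every group was lipid-transfected over 48 h, and the label gives 20 µM as the siRNA concentration. The labels give si1 and si2 cells the genotype AKR1A1-/- and siSCR cells the genotype wild-type, whereas the protocol is a transient transfection. Nothing in the labels says that the libraries of a group came from separate cultures, so the spread behind each p-value may be technical.

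Lysosomes are acidic compartments in which hydrolases break down proteins, lipids and glycans. A proton pump in their membrane keeps them acidic, proteins such as NPC1 export products, and the LAMP proteins form the inner lining. In autophagy, the ULK1 kinase complex and a lipid kinase complex built around BECN1 start a membrane that carries lipid-bound ATG8 proteins, takes in cargo through receptors such as SQSTM1 and fuses with the lysosome.

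Depth was 2108546 to 5939514 reads on genes per library. AKR1A1 averaged 50.1 ± 29.4 normalized counts in si1 libraries (SD, n = 3), 45.8 ± 10.2 in si2 libraries and 272 ± 82.3 in siSCR libraries (SD, n = 4 each). A normalized count is a read count divided by the library's relative log expression (RLE) size factor. Of 9 markers of a renal carcinoma line, CA9 was at 0 throughout and KRT19 reached at most 2.63 normalized counts, while the other 7, among them PAX8, were detected in every library. All 5 endothelial markers were at 0. The 6 leukocyte markers summed to 1.39 to 16.5 in si1 libraries, 2.41 to 8.40 in si2 libraries and 2.52 to 7.13 in siSCR libraries, with CD3E at 0. The 6 fibroblast markers summed to 12.3 to 30.5 in si1, 38.9 to 62.8 in si2 and 25.5 to 52.3 in siSCR libraries, with LUM at 0. Most of these sums was COL1A1, and PDGFRB reached 9.17 in siSCR libraries. Fewer cells of a type and less RNA per cell cannot be told apart in such bulk samples. Library siSCR 1 stood apart from siSCR 2 to 4. It had 12.1% of its reads on the 13 mitochondrially encoded genes, against 3.46% to 4.46% in siSCR 2 to 4, and the group means were 8.48% ± 2.32 in si1, 4.89% ± 0.244 in si2 and 6.09% ± 4.06 in siSCR. In the si1 group, library si1 1 had 11.1%, against 6.57% in si1 2 and 7.82% in si1 3. Results are therefore given with and without siSCR 1. For si1, the fits without siSCR 1 still hold si1 1, so only the control side loses its library of high share.

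Many lysosomal genes carry in their promoters the palindrome TCACGTGA, a form of the CLEAR element that the factor TFEB and its relatives bind. RefSeq promoters (build GRCh38.p14, 250 bases before to 50 bases after each start) were available for 42 of the 51 genes. The 8 letters occurred in 7 of these 42 (16.7%), and in 283 of all 27305 promoters (1.04%). Among lysosomal genes the count was 6 of 21 (28.6%), and among autophagy genes 1 of 21 (4.76%). The sites are shown because they mark the members that carry this lysosomal element. Each line gives 1 site per gene in 30 bases, 5′ to 3′ on the gene's strand, with the palindrome in capitals.
LAMP1, chr13:113297199-113297228 (+): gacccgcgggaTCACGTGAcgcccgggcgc
GAA, chr17:80101538-80101567 (+): gctcccgccggTCACGTGAcccgcctctgc
MCOLN1, chr19:7522571-7522600 (+): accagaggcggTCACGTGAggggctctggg
CLN3, chr16:28492058-28492087 (-): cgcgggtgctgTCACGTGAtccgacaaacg
ATP6V0D1, chr16:67481199-67481228 (-): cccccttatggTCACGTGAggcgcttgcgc
CTSA, chr20:45891298-45891327 (+): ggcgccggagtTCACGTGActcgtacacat
ATG3, chr3:112561940-112561969 (-): agagtctagtgTCACGTGAggccccggtgg
LAMP1, GAA and MCOLN1 each held a second site. The letters are the same on both strands, so 1 search covers both.

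BECN1, the scaffold of the lipid kinase complex, fell with si1, and the lysosomal genes NPC2 and OSTM1 rose with it. With si2 only NPC2 passed the threshold, a limma adjusted p under 0.05 over all genes tested. Of 50 genes tested for si1 against siSCR, 2 rose, where 0.789% of all 10517 tested genes rose, and 1 fell, where 0.932% fell. Of 50 tested for si2 against siSCR, 1 rose and 0 fell, where 1.93% and 1.19% of 10249 genes did. At an unadjusted p under 0.05, limma gave 12 higher and 3 lower members for si1, where 11.5% and 12.4% of all tested genes were higher and lower. For si2 it gave 14 higher and 0 lower, where 10.4% and 9.22% of genes were. Both comparisons use the same siSCR libraries. MCOLN1 did not pass the filter on low counts in either.

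Without siSCR 1, many more members passed, and so did many more genes. For si1, 11 rose and 2 fell of 50, against shares of 7.01% and 6.52% of 10340 tested genes. The 11 were NPC2, TPP1, PSAP, CTSA, ASAH1, HEXA, NPC1, OSTM1, UVRAG, GABARAPL2 and OPTN, and those that fell were BECN1 and GUSB. For si2, 16 rose and 0 fell of 50, against 7.74% and 6.68% of 10381 genes. The 16 were NPC2, TPP1, LIPA, PSAP, CTSB, CTSD, ASAH1, LAMP2, OSTM1, ATP6V1A, ATP6V1H, ATG14, WIPI1, GABARAPL1, GABARAPL2 and OPTN. In the authors' deposited table, si1 had 4 members with an adjusted p under 0.05 that were higher (TPP1, NPC2, OSTM1 and GABARAPL2) and 2 lower (CTSZ and BECN1), where 2.92% and 3.4% of 16600 genes were. For si2 the authors' deposited table had 7 higher (PSAP, LIPA, NPC2, LAMP2, OSTM1, ATG14 and OPTN) and 0 lower, where 2.17% and 1.42% of 17211 genes were. The shares from the authors' deposited table are over every gene with a read. They lack the filter on low counts of the limma fits, so they are not comparable with the limma shares.

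**Figure D1:**
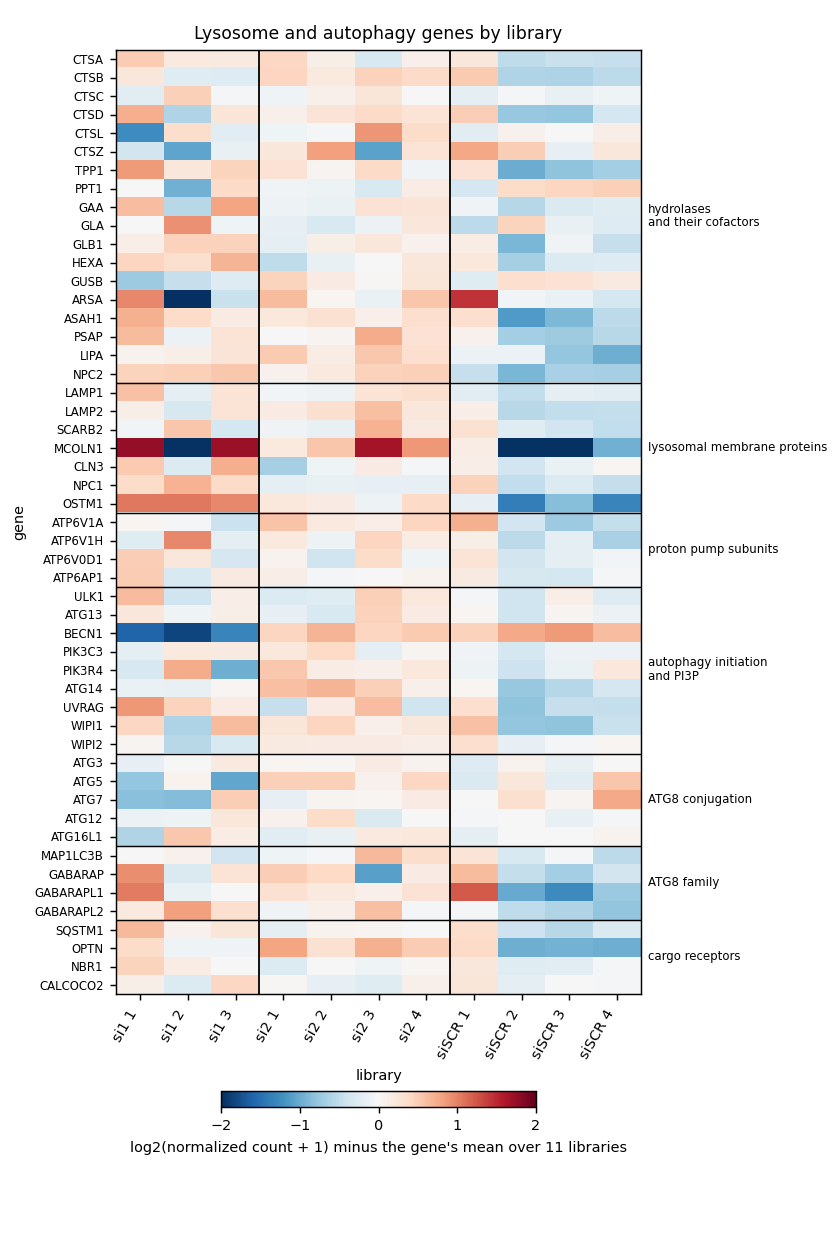
Level of each of the 51 genes (rows, by role) in each of the 11 libraries (columns), as log2(normalized count + 1) minus the gene's mean over the libraries; red is above and blue below that mean. The BECN1 row is blue in the 3 si1 libraries only, the OSTM1 row is reddest in them, and most lysosomal rows are blue in siSCR 2 to 4 but not in siSCR 1.

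As a whole, most members lay above siSCR in both comparisons by amounts that single genes seldom passed. Of the 50 tested, 40 (80%) had a positive log2 fold change with si1, against 47.9% of all tested genes, with a median of 0.30 against -0.03. With si2, 43 (86%) were positive, against 49.1%, with a median of 0.29 against -0.01. The lysosomal genes had medians of 0.44 for si1 and 0.37 for si2, and the autophagy genes 0.21 for each. Without siSCR 1 the lysosomal medians were 0.53 and 0.49 and the autophagy medians 0.25 and 0.27. These are descriptions of a chosen list, and the members' values are not independent of each other.

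Taken as the mean over the 29 lysosomal genes of the log2 level centred on all libraries, the level was 0.31, -0.08 and 0.21 in the si1 libraries and 0.09, 0.07, 0.24 and 0.24 in the si2 libraries. In the siSCR libraries it was 0.15, -0.46, -0.41 and -0.36. The other 3 siSCR libraries lay below every si1 and si2 library, while siSCR 1 lay within their range. Over the 22 autophagy genes the level was 0.05, -0.10 and -0.02 in si1 libraries, 0.12, 0.17, 0.16 and 0.16 in si2 libraries, and 0.19, -0.31, -0.27 and -0.15 in siSCR libraries. Here siSCR 1 was the highest of all 11.

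**Figure D2:**
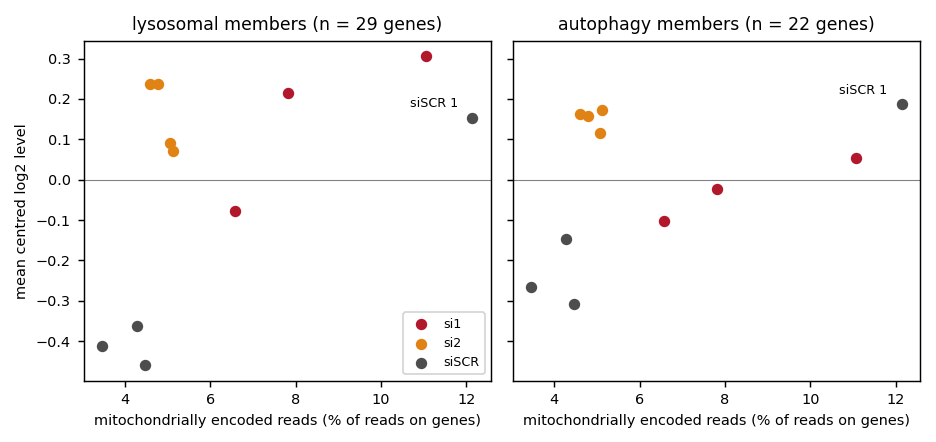
Mean centred log2 level of the lysosomal and of the autophagy genes (y axes) against the percentage of reads on mitochondrially encoded genes (x axes), 1 point per library. The siSCR 1 point has the highest mitochondrial share, 12.1%, and lies with the si1 and si2 libraries in level; siSCR 2 to 4 have shares of 3.46% to 4.46% and the lowest levels.

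Most members were higher in siSCR 1 than in the other control libraries. It lay above each of siSCR 2 to 4 in 34 of the 50 tested members (68%), against 36.0% of all tested genes, and below them in 10 (20%), against 35.8%. Its median log2 difference from their mean was 0.52 over the members and 0.02 over all tested genes. By role, it lay above in 4 of 4 pump subunits, 4 of 4 ATG8 family genes and 4 of 4 cargo receptors, but in 0 of 5 conjugation genes, of which it lay below in 4. When limma held the mitochondrial share constant, 2 members were called higher and 1 lower for si1, where 1.09% and 1.17% of all genes were, and the median log2 fold change was 0.16. For si2, 15 were called higher and 0 lower, where 7.3% and 5.81% of genes were, with a median of 0.34. The share was 4.59% to 5.12% in si2 libraries, 3.46% to 4.46% in siSCR 2 to 4 and 12.1% in siSCR 1. In the si2 fit it therefore mostly marked siSCR 1, and the result is not separate from that without siSCR 1, with 16 higher. What part the state of siSCR 1 has in the members' differences beyond these values was not tested.

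Among the hydrolases and their cofactors, NPC2 rose with both siRNAs. NPC2 is the soluble cholesterol carrier of the lysosome lumen, encoded at chr14:74476192-74494177. NPC2 had 1030.0, 1057 and 1106 normalized counts in the si1 libraries, 804, 866, 1045 and 1051 in the si2 libraries, and 547, 403, 485 and 479.7 in the siSCR libraries. Every si1 and si2 library lay above every siSCR library, and siSCR 1 was the highest of its group. The log2 fold change of NPC2 was 1.16 for si1 (SE 0.18, limma adjusted p = 0.0325) and 0.97 for si2 (SE 0.17, limma adjusted p = 0.0167). Without siSCR 1 the values were 1.23 (limma adjusted p = 0.0121) and 1.04 (limma adjusted p = 0.00505). With the replicate number as a block, the si1 value was 1.16 (limma adjusted p = 0.147) and the si2 value 0.97 (limma adjusted p = 0.0493). Leaving out any 1 of the other 6 libraries ended the si1 call of NPC2, at limma adjusted p-values up to 0.124. Those 6 fits called 0 to 4 of all tested genes, and the si1 fit with the block called 0. The si2 call of NPC2 was lost without siSCR 2, siSCR 4, si2 2 or si2 4, at limma adjusted p-values up to 0.0679. The 2 siRNAs did not differ detectably for NPC2, with a log2 difference of -0.19 for si2 minus si1 (95% interval -0.59 to 0.22, limma adjusted p = 0.545).

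TPP1, a peptidase that trims tripeptides, had 703, 454 and 532 normalized counts in si1 libraries, 476, 405, 506 and 369 in si2 libraries, and 475, 195, 221 and 242 in siSCR libraries. The si1 and si2 libraries overlapped with siSCR 1 alone. For TPP1 the difference was 1.06 for si1 (SE 0.33, limma adjusted p = 0.121) and 0.71 for si2 (SE 0.27, limma adjusted p = 0.182). Without siSCR 1 it was 1.34 (limma adjusted p = 0.0168) and 0.99 (limma adjusted p = 0.00639). PSAP, the precursor of the saposins that help degrade sphingolipids, had 12160.3, 7276 and 9524 normalized counts in si1, 7774, 8171, 13116 and 9550.2 in si2, and 8339, 4907, 4822 and 5319 in siSCR libraries. PSAP too overlapped through siSCR 1 only. Its log2 fold change was 0.73 for each siRNA (SE 0.27 for si1 and 0.23 for si2, limma adjusted p = 0.163 for si1 and 0.127 for si2). Without siSCR 1 it was 0.91 for each (limma adjusted p = 0.0444 for si1 and 0.0178 for si2).

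LIPA, the acid lipase of cholesteryl esters and triglycerides, had 64.1, 66.6 and 73.6 normalized counts in si1 libraries, 88.4, 68.2, 89.3 and 77.7 in si2 libraries, and 56.2, 56.6, 35.3 and 30.6 in siSCR libraries. Every si1 and si2 library lay above the siSCR libraries. The difference was 0.65 for si1 (SE 0.26, limma adjusted p = 0.19) and 0.89 for si2 (SE 0.23, limma adjusted p = 0.0669), neither past the threshold. Without siSCR 1 LIPA passed for si2 (1.01, limma adjusted p = 0.0186) and not for si1 (0.77, limma adjusted p = 0.0916).

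The other hydrolases differed in direction. Over all 18, 13 lay above siSCR with si1 (median log2 fold change 0.52) and 16 with si2 (median 0.37). ASAH1, the acid ceramidase, had 294, 230.4 and 199.9 normalized counts in si1 libraries, 207, 221, 191 and 226 in si2 libraries, and 225, 81.2, 95.5 and 124 in siSCR libraries, so that only siSCR 1 reached the treated range. CTSD, an aspartic protease, had 9263, 3689.8 and 6618 in si1 libraries, 5976, 6701, 7319 and 6778 in si2 libraries, and 7833, 3325, 3279 and 4361 in siSCR libraries. In si1 the CTSD libraries spread as widely as the groups differed. GUSB, the beta-glucuronidase, went the other way with si1: it had 92.2, 111 and 128 normalized counts in si1, 209, 171, 154 and 179.9 in si2, and 128, 193, 186 and 172 in siSCR libraries. Every si1 library lay below the lowest siSCR library, siSCR 1, though si1 3 did so by under 1 normalized count, and the log2 fold change of -0.61 (SE 0.22) did not pass (limma adjusted p = 0.148). Of the other hydrolases below siSCR with si1, CTSZ, a cysteine protease, had a log2 fold change of -0.85 (SE 0.30, limma adjusted p = 0.152). PPT1, which removes fatty acyl groups from proteins, had -0.42 (SE 0.36), and CTSL, another cysteine protease, had -0.37 (SE 0.36). ARSA, the arylsulfatase, had -0.90 (SE 0.80), with 57.1, 4.16 and 21.0 normalized counts over the si1 libraries.

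OSTM1, the subunit that stabilises the lysosomal chloride-proton exchanger CLC-7, had the largest positive fold change among the members with si1. The gene lies at chr6:108041409-108165854. OSTM1 had 184, 183 and 173 normalized counts in si1 libraries, 102, 98.7, 81.9 and 116 in si2 libraries, and 78.9, 33.1, 48.4 and 34.6 in siSCR libraries. The 3 groups did not overlap: every si1 library lay above every si2 library and every si2 library above every siSCR library, of which siSCR 1 was nearest. The log2 fold change of OSTM1 was 1.95 for si1 (SE 0.31, limma adjusted p = 0.0341). For si2 it was 1.09 (SE 0.27, limma adjusted p = 0.0571), and the difference of si2 minus si1 was -0.86 (SE 0.18, limma adjusted p = 0.0306). Without siSCR 1 the values were 2.21 for si1 (limma adjusted p = 0.00696) and 1.35 for si2 (limma adjusted p = 0.00356). With the replicate number as a block the si1 value was 1.82 (limma adjusted p = 0.147), and leaving out any 1 of the libraries other than siSCR 1 ended the call, at limma adjusted p-values up to 0.124. Those si1 fits called 0 to 4 of all tested genes. The call of si2 against si1 remained without si1 2 and was lost without any 1 of the other 6 libraries, at limma adjusted p-values up to 0.0854. It was also lost with the replicate number as a block (-0.94, limma adjusted p = 0.147). The exact two-sided permutation p, taken as 2 times the smaller tail, was 0.0571 for OSTM1 with si1. That is the smallest this form of the test gives for 3 against 4 libraries. For si2 the OSTM1 value was 0.0286, the smallest for 4 against 4. NPC2 gave the same exact permutation p in each of these comparisons.

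NPC1, the membrane protein that takes cholesterol from NPC2, had 237, 296 and 237 normalized counts in si1 libraries, 160.1, 165, 164 and 163 in si2 libraries, and 252, 129, 152 and 130.4 in siSCR libraries. The si1 libraries lay above siSCR 2 to 4 and on both sides of siSCR 1, and the si2 libraries lay above siSCR 2 to 4 and below siSCR 1. Its log2 fold change was 0.68 for si1 (SE 0.27, limma adjusted p = 0.185) and 0.03 for si2 (SE 0.22, 95% interval -0.45 to 0.52, limma adjusted p = 0.957). Without siSCR 1 NPC1 passed for si1 (0.90, limma adjusted p = 0.0266) and not for si2 (0.25, limma adjusted p = 0.237). The difference of si2 minus si1 was -0.64 (SE 0.17, limma adjusted p = 0.0578).

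LAMP1 and LAMP2 are the major glycoproteins of the lysosome's inner lining. LAMP1 had 3224, 1896 and 2585 normalized counts in si1 libraries, 2052, 1985, 2580.3 and 2668 in si2 libraries, and 1856, 1520.2, 1865 and 1857 in siSCR libraries. Neither siRNA group overlapped with siSCR for LAMP1, but si1 2 exceeded the highest siSCR library by little. The log2 fold change was 0.50 for si1 (SE 0.22, limma adjusted p = 0.218) and 0.38 for si2 (SE 0.17, limma adjusted p = 0.243). LAMP2 had 315, 232 and 352 normalized counts in si1 libraries, 325, 364, 439 and 337 in si2 libraries, and 317, 197, 207 and 208 in siSCR libraries. Its si2 libraries all lay above siSCR, with a log2 fold change of 0.67 (SE 0.19, limma adjusted p = 0.0951) that passed without siSCR 1 (0.83, limma adjusted p = 0.00925). The si1 value of LAMP2 was 0.37 (SE 0.25, limma adjusted p = 0.377).

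MCOLN1, the TRPML1 cation channel, was close to the detection limit. It had 12.3, 0 and 12.0 normalized counts in si1 libraries, 3.54, 4.82, 11.6 and 6.22 in si2 libraries, and 3.36, 0, 0 and 1.02 in siSCR libraries. A count of 0 allows up to 3 reads, which is 4.16 normalized counts in si1 2, 3.205 in siSCR 2 and 3.92 in siSCR 3 for counting error alone. MCOLN1 was tested between the siRNAs only, with a log2 difference of 0.33 for si2 minus si1 (SE 0.87, limma adjusted p = 0.844). SCARB2, a sorting receptor, and CLN3, a membrane protein mutated in juvenile Batten disease, had log2 fold changes of 0.26 and 0.41 with si1 and 0.37 and -0.07 with si2, none past the threshold.

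All 4 proton pump subunits had a positive log2 fold change with each siRNA, and none passed the threshold with all libraries in. ATP6V1A, the catalytic subunit, had 191, 180.4 and 137 normalized counts in si1 libraries, 274, 211, 204 and 249.8 in si2 libraries, and 303, 142, 111 and 132 in siSCR libraries. The si2 libraries lay above siSCR 2 to 4 and below siSCR 1. Its value was 0.08 for si1 (SE 0.35, limma adjusted p = 0.911) and 0.55 for si2 (SE 0.29, limma adjusted p = 0.334), the second becoming 0.86 without siSCR 1 (limma adjusted p = 0.0119). ATP6V1H, a regulatory subunit, had 127, 293 and 132 normalized counts in si1 libraries, 172, 140.4, 204 and 167 in si2 libraries, and 164, 104, 132 and 95.7 in siSCR libraries. Library si1 2 alone was far above the others of its group. ATP6V1H had a log2 fold change of 0.49 for si1 (SE 0.34) and 0.48 for si2 (SE 0.21). ATP6AP1, an accessory protein of the pump, had 604, 340.0 and 478 normalized counts in si1 libraries, 463, 409, 421 and 445 in si2 libraries, and 479, 337, 331 and 410.4 in siSCR libraries, and the groups overlapped.

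**Figure D3:**
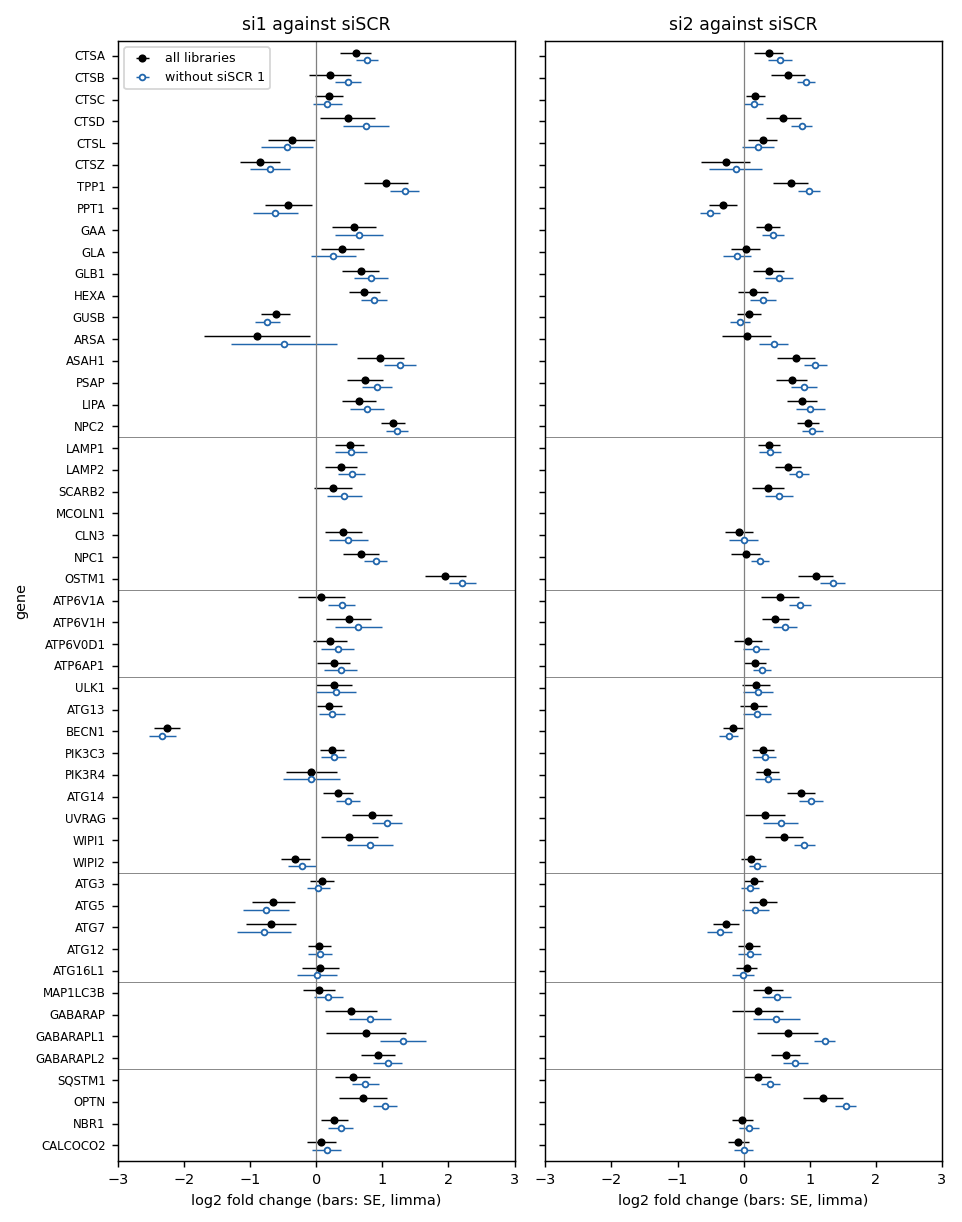
Log2 fold changes against siSCR of the 51 genes (rows), for si1 on the left and si2 on the right, with limma standard errors; filled points use all libraries and open points leave out siSCR 1. The point for BECN1 lies at -2.26 with si1 and -0.16 with si2, and most open points lie to the right of the filled ones; MCOLN1 has no point.

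BECN1 had the largest absolute fold change of all members with si1. The gene lies at chr17:42810134-42833350 on the minus strand. BECN1 had 69.4, 58.3 and 84.2 normalized counts in si1 libraries, 285, 341, 287 and 303 in si2 libraries, and 292, 359, 383 and 325 in siSCR libraries. The si1 libraries lay far below all others, and the si2 libraries overlapped with siSCR. The log2 fold change of BECN1 was -2.26 for si1 (SE 0.20, limma adjusted p = 0.0185), the second smallest p of all 10517 genes tested. In the authors' deposited table the BECN1 value was -2.13, with the smallest p of 16600 genes and an adjusted p of 2.58e-19. For si2 the limma value was -0.16 (SE 0.15, 95% interval -0.50 to 0.18, limma adjusted p = 0.626). The difference between the siRNAs was itself tested: BECN1 was higher by 2.10 in si2 than in si1 (SE 0.19, limma adjusted p = 0.00409), and each of the 7 fits that left out 1 library kept that call. With the replicate number as a block this difference was again 2.10, but the call was lost (limma adjusted p = 0.0822). That fit called 6 of all tested genes.

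The size of the BECN1 difference with si1 stayed between -2.39 and -2.13 whichever library was left out, and was -2.33 without siSCR 1 (limma adjusted p = 0.00696). Its call did not always hold: the limma adjusted p was 0.117 without siSCR 2, 0.0573 without siSCR 3, 0.107 without siSCR 4, 0.0659 without si1 1 and 0.0676 without si1 3. With the replicate number as a block it was -2.28 (limma adjusted p = 0.147). Over all tested genes, the fits that lost the call, the block among them, called 0 to 3. With the mitochondrial share in the fit the BECN1 difference was -2.20 (limma adjusted p = 0.0263). The exact two-sided permutation p of BECN1 was 0.0571 for si1, the smallest this form of the test gives over 35 arrangements, and 0.2 for si2. Of the exon bases of BECN1, 12.4% are shared with CNTD1 on the opposite strand. The strandedness of the libraries was not given in the sources used here, so reads from those bases cannot be assigned to 1 gene. The siRNA sequences were not given either, so their match to BECN1 was not tested.

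**Figure D4:**
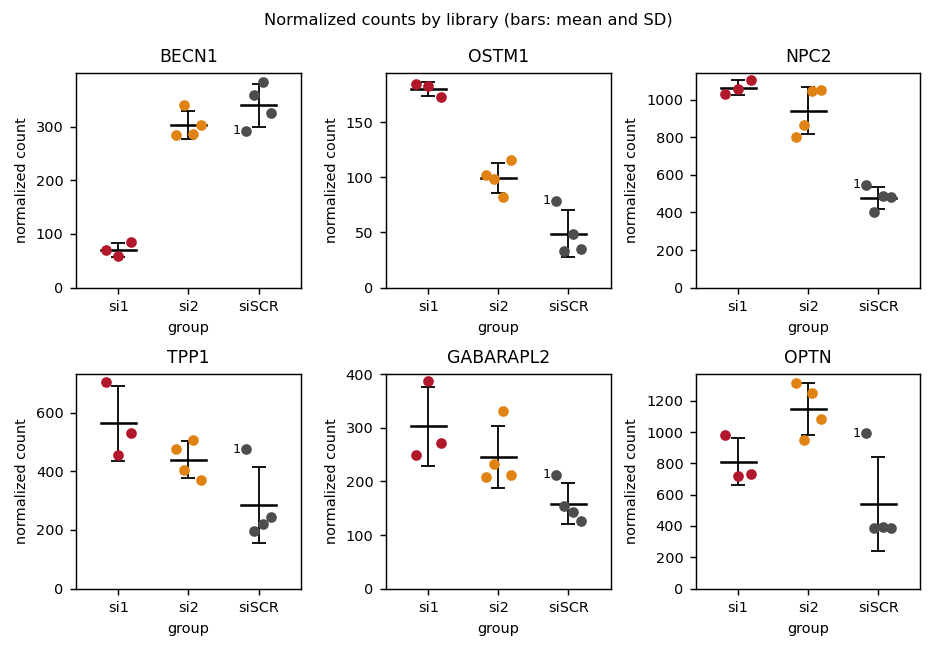
Normalized counts of BECN1, OSTM1, NPC2, TPP1, GABARAPL2 and OPTN by group, 1 point per library with the mean and SD (n = 3 for si1, n = 4 for si2 and siSCR); the point marked 1 is siSCR 1. BECN1 is at 58.3 to 84.2 in si1 and at 284.8 or more in all other libraries, and OSTM1 separates into 3 levels.

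None of the partners of BECN1 in the lipid kinase complexes passed the test with si1. PIK3C3, the lipid kinase itself, had 128, 167 and 164 normalized counts in si1 libraries, 168, 192, 128 and 151 in si2 libraries, and 138, 113, 133 and 133 in siSCR libraries. The groups overlapped, with a log2 fold change of 0.23 for si1 (SE 0.18) and 0.29 for si2 (SE 0.17), neither past the threshold. ATG14, the subunit of the complex that starts autophagosomes, had 51.8, 51.3 and 58.6 normalized counts in si1 libraries, 86.7, 91.5, 79.8 and 61.2 in si2 libraries, and 58.8, 33.1, 37.9 and 44.8 in siSCR libraries. All si2 libraries lay above siSCR, with a log2 fold change of 0.87 (SE 0.21, limma adjusted p = 0.0564) that passed without siSCR 1 (1.02, limma adjusted p = 0.00913). The si1 value of ATG14 was 0.33 (SE 0.23, limma adjusted p = 0.4).

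UVRAG, the alternative subunit in endosomal complexes, had 83.4, 62.4 and 51.1 normalized counts in si1 libraries, 32.7, 51.4, 70.4 and 34.2 in si2 libraries, and 57.9, 25.6, 32.7 and 32.6 in siSCR libraries. Its si1 libraries lay above siSCR 2 to 4 but not all above siSCR 1. UVRAG had a log2 fold change of 0.84 for si1 (SE 0.31, limma adjusted p = 0.158), 1.07 without siSCR 1 (limma adjusted p = 0.0324), and 0.33 for si2 (SE 0.30, limma adjusted p = 0.599). WIPI1 and WIPI2 bind the PI3P that the complex makes. WIPI1 had 83.4, 40.2 and 97.7 normalized counts in si1 libraries, 74.3, 84.3, 67.2 and 73.1 in si2 libraries, and 94.0, 36.3, 35.3 and 45.8 in siSCR libraries. It passed for si2 only without siSCR 1 (0.92, limma adjusted p = 0.0069). WIPI2 had 593, 391 and 461 normalized counts in si1 libraries, 648, 644, 639.6 and 626 in si2 libraries, and 723, 509, 564 and 589.7 in siSCR libraries, with overlapping groups. The kinase ULK1, its partner ATG13 and the regulatory subunit PIK3R4 had log2 fold changes of 0.26, 0.19 and -0.07 with si1, and 0.19, 0.15 and 0.36 with si2, none past the threshold.

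The products of the 5 conjugation genes attach ATG8 proteins to lipid. None of the 5 passed in any of the 3 comparisons with all libraries in, and their median log2 fold changes were 0.05 for si1, with values in both directions, and 0.09 for si2. ATG7, the activating enzyme, had 18.4, 18.0 and 48.1 normalized counts in si1 libraries, 30.1, 35.3, 34.7 and 37.8 in si2 libraries, and 33.6, 42.7, 35.3 and 58.1 in siSCR libraries. ATG5 had 27.2, 49.96 and 22.5 normalized counts in si1 libraries, 66.3, 66.6, 50.4 and 63.8 in si2 libraries, and 38.6, 55.6, 40.6 and 70.3 in siSCR libraries. For both, 2 of the 3 si1 libraries lay below every siSCR library and the other lay within their range. The si1 log2 fold changes were -0.69 for ATG7 (SE 0.38, limma adjusted p = 0.292) and -0.65 for ATG5 (SE 0.33, limma adjusted p = 0.265). ATG12, the ubiquitin-like partner of ATG5, had 236, 239 and 299 normalized counts in si1 libraries, 272, 331, 210.0 and 254 in si2 libraries, and 252, 257, 232 and 253 in siSCR libraries. Its fold changes of 0.05 for si1 (95% interval -0.35 to 0.45) and 0.09 for si2 (95% interval -0.29 to 0.46) were among the smallest of the members.

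The 4 ATG8 family genes lay above siSCR on the mean with each siRNA, with medians of 0.64 for si1 and 0.50 for si2. GABARAPL2 had 250.3, 387 and 272 normalized counts in si1 libraries, 208, 234, 332 and 213 in si2 libraries, and 212, 154, 143 and 125 in siSCR libraries. All si1 libraries lay above siSCR, and the lowest si2 library lay just under siSCR 1. Its log2 fold change was 0.93 for si1 (SE 0.25, limma adjusted p = 0.0888) and 0.63 for si2 (SE 0.22, limma adjusted p = 0.145), and without siSCR 1 it was 1.08 (limma adjusted p = 0.0277) and 0.78 (limma adjusted p = 0.0298). GABARAPL1 had 1399.7, 619 and 679 normalized counts in si1 libraries, 843, 774, 729.9 and 826 in si2 libraries, and 1588, 337, 281 and 406 in siSCR libraries. Here siSCR 1 was the highest of all libraries, 4.65 times the mean of siSCR 2 to 4, and si1 1, the si1 library with the largest mitochondrial share at 11.1%, was next. GABARAPL1 was 0.75 for si1 (SE 0.61, limma adjusted p = 0.472) and 0.67 for si2 (SE 0.46, limma adjusted p = 0.461). Without siSCR 1 it passed for si2 (1.23, limma adjusted p = 0.00311) and missed for si1 (1.31, limma adjusted p = 0.0524). MAP1LC3B, the most used autophagosome marker, had a log2 fold change of 0.05 for si1 (SE 0.24) and 0.37 for si2 (SE 0.23), and shares near-identical sequence with MAP1LC3B2, so its count is uncertain.

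Among the cargo receptors, OPTN, which binds ubiquitin-tagged cargo such as damaged mitochondria, had 983, 720.2 and 729 normalized counts in si1 libraries, 1316, 948, 1249.7 and 1082 in si2 libraries, and 991, 387, 395 and 388 in siSCR libraries. The treated libraries lay well above siSCR 2 to 4, whose values were close together, and siSCR 1 lay with the treated ones. OPTN had a log2 fold change of 0.70 for si1 (SE 0.37, limma adjusted p = 0.275) and 1.21 for si2 (SE 0.30, limma adjusted p = 0.0611). Without siSCR 1 it was 1.04 for si1 (limma adjusted p = 0.021) and 1.54 for si2 (limma adjusted p = 0.00108). SQSTM1, the receptor p62, had 6287, 4246 and 4749 normalized counts in si1 libraries, 3549, 4198, 4175 and 4005 in si2 libraries, and 5115, 3007, 2726 and 3301 in siSCR libraries. The SQSTM1 groups overlapped through siSCR 1, with a fold change of 0.55 for si1 (SE 0.27, limma adjusted p = 0.251) and 0.21 for si2 (SE 0.21, limma adjusted p = 0.626). NBR1 and CALCOCO2, both receptors too, had 0.27 and 0.07 with si1 and -0.02 and -0.08 with si2, none past the threshold.

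Counting libraries without a model, 6 members had every si1 library above every siSCR library (HEXA, LIPA, NPC2, LAMP1, OSTM1 and GABARAPL2), or 12% of those tested, where 10.8% of all tested genes did. Below siSCR in this way were 2 members (GUSB and BECN1), or 4%, where 10.9% of genes were. For si2, 6 members lay wholly above (LIPA, NPC2, LAMP1, LAMP2, OSTM1 and ATG14), or 12%, where 7.09% of genes did, and 0 wholly below, where 5.5% did. The si1 shares were thus near or under those of all genes.

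Set against each other, the siRNAs differed for 2 of 51 members: BECN1 was higher in si2, where 3.71% of 10448 tested genes were higher, and OSTM1 was lower, where 3.02% were lower. The mitochondrial share was 6.57% to 11.1% in si1 and 4.59% to 5.12% in si2 libraries. These ranges do not overlap, so a fit with this share cannot tell it apart from the siRNA. With the mitochondrial share in the fit, BECN1 kept its call (2.21, limma adjusted p = 0.0318) and OSTM1 lost it (-0.81, limma adjusted p = 0.158). In that fit 2 members were called higher and 0 lower, where 1.19% and 0.412% of genes were, the other being ARSA (3.48, limma adjusted p = 0.0438), with 4.16 normalized counts in si1 2. Without the share in the fit ARSA was not called, at 27.4 ± 27.0 normalized counts in si1 and 36.0 ± 9.43 in si2 libraries (SD, n = 3 and 4). The median log2 difference of si2 minus si1 over the members was -0.01, with 24 positive and 27 negative.

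Per kilobase of exon, and averaged over all 11 libraries, PSAP had the highest level of the members at 2553 normalized counts per kb. CTSD followed at 1894, SQSTM1 at 539, LAMP1 at 382 and NPC2 at 293, and the lowest were ATG7 at 4.04 and MCOLN1 at 1.26. Of the exon bases of CTSD, 41.7% are shared with another annotated gene on the same strand, so its count may be split between them. The same holds for 30.5% of GABARAP, 25.2% of CLN3 and 11.6% of TPP1. Bases shared with a gene on the opposite strand made up 24.3% of WIPI1 (with ARSG), 23.4% of PPT1 (with CAP1), 20.7% of SQSTM1 (with MRNIP), 18.1% of ATG7 (with VGLL4), 17.7% of CTSA (with NEURL2) and 10.1% of HEXA, and these counts are uncertain to that extent.

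Members with TCACGTGA in the promoter had a median log2 fold change of 0.46 with si1 (6 tested) and 0.26 with si2, against 0.26 and 0.21 for the 35 tested members with a promoter but without these letters. Their individual values ran from 0.09 to 0.59 with si1, within the range of the others. NPC2, OSTM1 and BECN1 do not hold these 8 letters in the window read, from which nothing is drawn about TFEB.

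Of 103 other genes of the same pathways, 90 were tested for si1 and 89 for si2. With si1, 3 rose and 0 fell, where 0.789% and 0.932% of all tested genes did. They were SGSH, a heparan sulfate sulfatase, at 43.6 ± 9.79 normalized counts in si1 against 14.7 ± 3.17 in siSCR libraries, SMPD1, the acid sphingomyelinase, at 198 ± 34.5 against 84.6 ± 10.3, and ATP6V1B2, a pump subunit, at 362 ± 26.8 against 165 ± 18.3 (SD, n = 3 and 4). Their log2 fold changes were 1.51, 1.21 and 1.14, at limma adjusted p-values of 0.0357, 0.0349 and 0.0333. All 3 lost the call with the replicate number as a block (limma adjusted p = 0.147 each) and without any 1 library other than siSCR 1 (limma adjusted p 0.0675 to 0.128). Those fits called 0 to 4 of all tested genes. With si2, ATP6V1B2 rose (362 ± 87.6 in si2 libraries, log2 fold change 1.11, limma adjusted p = 0.0188), a call lost without siSCR 2, siSCR 4, si2 1 or si2 4 (limma adjusted p up to 0.0702). GNPTAB, the enzyme that begins the mannose 6-phosphate tag of hydrolases, fell with si2 (-0.87, limma adjusted p = 0.0488), a call lost without any 1 library other than siSCR 1 (limma adjusted p up to 0.14). With the replicate number as a block, the si2 call of ATP6V1B2 was kept (limma adjusted p = 0.0372) and that of GNPTAB was lost (limma adjusted p = 0.0512). Between the siRNAs, CTSO, ARSB and ATP6V0E1 were higher in si2, and SMPD1, CLCN7, GNPTAB, ATP6V0A1 and FYCO1 were lower, or 3 and 5 of 90 tested, where 3.71% and 3.02% of genes were. Of these 8 calls, that of FYCO1 remained whichever library was left out, and with the mitochondrial share in the fit that of ARSB alone remained. ARSB was tested in only 4 of the fits without 1 library and called in 2 of them. ARSB passed the filter on low counts through si2 libraries only, with every si1 library under 10 normalized counts. Nothing is therefore drawn from its call. With the replicate number as a block ARSB was not tested, and every other of these calls was lost (limma adjusted p 0.0998 to 0.189). That blocked fit called 6 of all tested genes. GNPTAB had the lowest of these differences at -1.55 (limma adjusted p = 0.016), with 148 ± 32.1 normalized counts in si2 and 432 ± 89.7 in si1 libraries, and it was lost without si2 4 (limma adjusted p = 0.0525). CLCN7, which encodes the exchanger that OSTM1 stabilises, was 84.1 ± 11.3 in si2 and 161 ± 20.3 in si1 libraries, a log2 difference of -0.93 (limma adjusted p = 0.0292) that passed, among the 7 fits without 1 library, only without si1 2 (limma adjusted p up to 0.0863). Without siSCR 1, the counts of these other genes were 16 higher and 0 lower of 87 tested for si1, where 7.01% and 6.52% of all tested genes were, and 18 higher and 1 lower of 89 for si2, where 7.74% and 6.68% were.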

How the data were processed

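RNA of 769-P cells was sequenced in 11 libraries. The submitters' processing notes name cutadapt, FastQC, STAR, HTSeq, DESeq2 and the build GRCh38, and the labels' protocols say that HTSeq counts were scaled by relative log expression. Per the file headers, the authors deposited for each library the log2 of the normalized count plus 1, with a signal mean per gene, a log2 fold change, p-values and adjusted p-values from DESeq2, quoted only under that name, the authors' deposited table. Undone, 100% of values lay within 0.01 read of whole reads, which gave the depth. Here limma 3.58.1 (R 4.3.3) was fitted to the log2 values of the 2 groups compared, for genes that reached a normalized count of 10 in a number of libraries equal to the smaller group's size. Benjamini-Hochberg adjustment ran over all genes tested, two-sided. The plan named a count model for raw counts, and the deposited unit was log2. For the authors' tools no version, and for the libraries no strandedness, is given in the sources used here.

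The members and lists were chosen with earlier results of these data known. Genes shown per library were those called in any comparison, the 2 largest fold changes per role and siRNA, and the highest level per exon length in each role; ASAH1, CTSD, GUSB, MCOLN1 and PIK3C3 were added after their values were seen. Libraries of si1 and siSCR with the same replicate number correlated in their deviations from group means at 0.417, 0.105 and 0.172 for replicates 1, 2 and 3. Only the value of replicate 1 lay above every such value of the si2 comparisons. A pairing of this kind comes from the data and not from the design, so blocked values stand beside the si1 calls. Intervals of fold changes come from limma and rest on the spread between libraries; limits for counts of 0 cover counting error only. Exon lengths and positions come from GENCODE 29. Some genes of the wider lists are not reported here.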

Additional observations from a re-analysis of the deposited data

Results flagged for a closer look

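A single siSCR library stood apart from the other 3 of its group in 8 cases. In siSCR 1, CTSA had 706 normalized counts against 424 to 443 in the others, CTSB 1558 against 706 to 755, LAMP2 317 against 197 to 208, and OPTN 991 against 387 to 395. ARSA had 80.6 in siSCR 1 against 22.4 to 27.8, and PPT1 was low, at 142 against 235 to 254. In siSCR 2, LAMP1 was low at 1520.2 normalized counts against 1856 to 1865, and so was PIK3C3 at 113 against 133 to 138. In the si2 group, ATG5 was low in si2 3, at 50.4 normalized counts against 63.8 to 66.6. These are 9 of 102 gene and group pairs examined, where chance alone marks about 1 in 20. Library siSCR 1 also has the largest share of mitochondrial reads, 12.1%, and its part in these values was not tested.

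The siRNAs differed from each other, by the test of that difference, for BECN1 (si2 minus si1, 2.10 on the log2 scale) and for OSTM1 (-0.86). Neither call held with the replicate number as a block (limma adjusted p = 0.0822 for BECN1 and 0.147 for OSTM1). That fit called 6 of all tested genes.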

How the results depend on the processing

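For si1 against siSCR, 181 genes were called as reported, and 5 with no filter, 567 with a minimum of 50, 712 with limma-trend, 582 with voom on the recovered reads, 414 with a pseudocount of 5, 1112 in a fit of all 11 libraries, 0 with the replicate block and 0 to 1399 without 1 library. Members called, 3 as reported, were 1 with no filter, 5 with limma-trend, 5 with all 11 libraries, 0 with the replicate block and 0 to 13 without 1 library. OSTM1 stayed at 1.95 with no filter (limma adjusted p = 0.0856), was 1.82 with the replicate block and 1.80 to 2.21 without 1 library; BECN1 was -2.28 with the block and -2.39 to -2.13 without 1 library. For si2 against siSCR, 320 genes became 108 with no filter, 482 with limma-trend, 1343 with the mitochondrial covariate, 175 with the replicate block and 88 to 1496 without 1 library; the 1 member became 0, 5 (minimum of 50), 6, 4 (voom), 4 (pseudocount of 5), 15 (mitochondrial covariate) and 0 to 16. For si2 against si1, 704 genes became 230 with no filter, 1064 with limma-trend, 1172 with voom, 167 with the covariate, 6 with the replicate block and 120 to 803 without 1 library; the 2 members became 1, 5 (minimum of 50), 4, 4, 1 (all 11 libraries), 0 (replicate block) and 1 to 3. Among the genes chosen by the rule on largest changes, calls and level, signs turned only where none was called: ATP6V1A with si1 (-0.25 with the covariate, -0.0094 with the replicate block, -0.0927 to 0.387 without 1 library), ATG12 without 1 library (-0.0634 to 0.106 with si1 and -0.024 to 0.193 with si2) and NPC1 with si2 (-0.0674 to 0.252 without 1 library). The cause was not tested. Same-number correlations of si2 were -0.03 to 0.18 with siSCR and -0.02 to 0.12 with si1. Those with siSCR were of the same size as the 0.105 and 0.172 of replicates 2 and 3 of si1 with siSCR. Depth limits MCOLN1.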
